A study of Homo sapiens with 6 samples.

Results

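NRF2, encoded by NFE2L2, is the transcription factor that switches on antioxidant and detoxifying genes, and the 10 genes described here are NFE2L2 itself and 9 genes known as its targets. The 10 genes were listed by name, and each matched 1 of the 58243 Ensembl identifiers in the deposited tables by its GENCODE 29 symbol. Messenger RNA was sequenced from CAL27, an established epithelial line of a human tongue squamous carcinoma, grown in DMEM with fetal bovine serum. In 3 libraries the cells had received metformin, a biguanide that lowers blood glucose, at 30 mM over 48 hours, and in the other 3 libraries the PBS vehicle over the same time. Nothing in the labels says that replicate libraries were independent cultures, so the p-values measure spread between libraries that may be technical. A single dose, time and cell line were studied, and NRF2 protein was not measured. In bulk RNA, fewer cells with a transcript and less of it per cell cannot be told apart.

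In unstressed cells NRF2 protein is held by KEAP1, which hands it to a CUL3 and RBX1 ubiquitin ligase for destruction. Oxidants and electrophiles that modify KEAP1 let NRF2 build up, pair with a small MAF protein and bind antioxidant response elements, whereas BACH1 competes for the same elements. Because this control acts largely on the protein, the NFE2L2 transcript level is not a measure of NRF2 activity. Cells of squamous carcinomas are known for frequent mutations of this pathway.

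With metformin, 8 of the 10 genes rose and 1, AKR1B10, fell (limma with Benjamini-Hochberg adjustment over all genes). AKR1B10 passed the level filter only through its PBS libraries, so it could be tested only because it was higher there, and its call adds no support to a count. AKR1C1, below 1 FPKM in every library, was not tested. The oxidative stress-induced gene OSGIN1 and the heme-degrading enzyme gene HMOX1 had the largest folds among the 8 (5.36 and 4.21), and the quinone reductase gene NQO1 the smallest (1.32). NFE2L2 itself was 2.61-fold higher. Of all 13437 tested genes, 56.2% were called, 31.0% higher and 25.2% lower, so a call by itself sets no gene apart in this comparison. The excess of higher calls was not kept under median-of-ratios scaling or quantile normalization. The median log2 change of the 9 tested genes was 1.12, beside a median of 0.06 over all tested genes. This is a description of genes listed with earlier results of these data known, and the list was not tested against other genes.

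Values are FPKM, fragments per kilobase of transcript scaled to a library's mapped fragments, as the authors deposited them. Group values are mean ± SD of 3 libraries, folds are ratios of means, and log2 changes (metformin minus PBS) use log2(FPKM + 1), so changes of low genes come out too small. Genes were tested where the 6 libraries averaged 1 FPKM or more, and a gene was called at an adjusted p below 0.05. From the spacing of low values the libraries held an estimated 7810000 to 8820000 fragments, so 1 FPKM over 1 kb of transcript stands for 7.81 to 8.82 fragments. The 9 listed squamous epithelial markers were all at or above 5 FPKM in every library. Their summed level was 752 to 775 FPKM with metformin and 1292 to 1371 FPKM with PBS, mainly through KRT14 and KRT5, with 3 of the 9 higher and 5 lower. Of 11 listed markers of blood, vessel, fibroblast and muscle cells, 7 stayed below 1 FPKM throughout, DCN and DES at a listed 0. Their sum was 9.32 to 10.3 FPKM with metformin and 10.9 to 11.2 FPKM with PBS, with 3 of the 4 tested markers higher and 1 lower. The macrophage marker CD68 had 3.33 ± 0.319 FPKM with metformin and 2.15 ± 0.207 FPKM with PBS, the collagen gene COL1A1 2.38 ± 0.221 FPKM with metformin and 1.36 ± 0.200 FPKM with PBS, and the smooth muscle actin gene ACTA2 1.61 ± 0.104 FPKM with metformin and 0.963 ± 0.180 FPKM with PBS. The other collagen gene listed, COL1A2, was too low to be tested and went the other way. It had 0.0110 ± 0.0113 FPKM with metformin and 0.209 ± 0.0448 FPKM with PBS. ACTA2 passed the level filter only through its metformin libraries, so its call adds no support to the count of higher markers. The endothelial cadherin gene CDH5, the lower one of the 4 tested, had 2.03 ± 0.0758 FPKM with metformin and 6.17 ± 0.516 FPKM with PBS. The part that these marker shifts have in the results below was not tested.

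The promoter stretches below show where the letters of known response elements stand in the 2 genes that hold an antioxidant response element core, and in OSGIN1, the gene with the largest change. RefSeq promoters (GRCh38.p14, 250 bases before to 50 after the gene start) were at hand for 8 of the 10 genes. The core was searched as TGACNNNGC on both strands. GCLM and TXNRD1 held it, TXNRD1 also across its upstream start, a match not shown, and NFE2L2, GCLC, NQO1, SRXN1, OSGIN1 and AKR1C1 did not in this window. Among all 27305 genes with a promoter, 16.1% held it. The AP-1 letters TGANTCA, which can overlap that core, stood in OSGIN1 alone of the 8 (9.37% of all genes), and in these promoters no AP-1 site overlapped a core. The letters TGATGNAA of the ATF4 response element stood in 0 of the 8 (4.46% of all genes). Such matches describe letters and are not evidence of binding. Each line runs 5′ to 3′ on the gene's strand, ends at or before the RefSeq start, from which distances are counted, and has the matched letters in capitals. RefSeq starts can lie inside the GENCODE gene spans given below: the GCLM start lies 26 bases, the OSGIN1 start 4958 bases and the downstream TXNRD1 start 71253 bases into the gene, and the upstream TXNRD1 start is the same in both.
GCLM, chr1:93909431-93909494, minus strand, core 34 to 26 bases before the start, read on the opposite strand: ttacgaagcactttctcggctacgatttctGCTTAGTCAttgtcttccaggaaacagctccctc
TXNRD1, upstream start, chr12:104215650-104215718, plus strand, core 99 to 91 bases before the start: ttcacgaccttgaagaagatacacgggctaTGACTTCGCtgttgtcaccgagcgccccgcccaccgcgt
TXNRD1, downstream start, chr12:104286900-104286968, plus strand, core 102 to 94 bases before the start, read on the opposite strand: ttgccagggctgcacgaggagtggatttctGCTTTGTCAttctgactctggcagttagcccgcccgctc
OSGIN1, chr16:83953113-83953179, plus strand, AP-1 letters 97 to 91 bases before the start: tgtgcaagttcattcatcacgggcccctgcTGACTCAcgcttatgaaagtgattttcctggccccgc

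The factor's own gene, NFE2L2 (ENSG00000116044.15, GRCh38 chromosome 2, 177227595 to 177392697, minus strand), had 19.8, 19.5 and 18.6 FPKM in the metformin libraries, against 7.555, 7.92 and 6.71 FPKM in the PBS libraries. Every metformin library lay above every PBS library, a separation in this direction seen in 35.7% of tested genes, beside 28.7% in the other direction and 64.4% in either. The log2 change was 1.28 (SE 0.07, limma adjusted p = 2.42e-05), and 6.18% of tested genes had a larger change in either direction. NFE2L2 shares 190 of its 5979 exon bases with AC079305.1 on the opposite strand, which had 15.8 FPKM with metformin and 9.78 FPKM with PBS, and 54 with AGPS. Whether the authors' counting used strand is not given in the sources used here, so fragments from such bases could belong to either gene.

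HMOX1 (ENSG00000100292.16, chromosome 22, 35380361 to 35394214, plus strand), which encodes the inducible heme oxygenase that breaks heme into biliverdin, iron and carbon monoxide, had 11.015, 10.4 and 9.44 FPKM with metformin, against 2.35, 2.49 and 2.49 FPKM with PBS. The groups were far apart and each was tight. The log2 change was 1.71 (SE 0.08, limma adjusted p = 9.11e-06), larger in 2.47% of tested genes. Its constitutive paralog HMOX2 had 20.1 ± 1.33 FPKM with metformin and 18.2 ± 0.683 FPKM with PBS and was not called (limma adjusted p = 0.124).

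The rate-limiting enzyme of glutathione synthesis, glutamate-cysteine ligase, is made of a catalytic subunit from GCLC and a modifier subunit from GCLM. GCLC (ENSG00000001084.10, chromosome 6, 53497341 to 53616970, minus strand) had 16.8, 17.7 and 15.9 FPKM with metformin and 7.03, 5.93 and 8.82 FPKM with PBS. GCLM (ENSG00000023909.9, chromosome 1, 93885205 to 93909456, minus strand) had 22.3, 19.9 and 18.4 FPKM with metformin and 11.9, 11.3 and 13.2 FPKM with PBS. For both subunits every metformin library was above every PBS library. The log2 change was 1.12 for GCLC (SE 0.13, limma adjusted p = 0.000414) and 0.69 for GCLM (SE 0.09, limma adjusted p = 0.000731). Within a library the ratio of GCLC to GCLM does not depend on scaling between libraries, and it was 0.753, 0.889 and 0.865 with metformin against 0.593, 0.523 and 0.670 with PBS. GCLC transcript was below GCLM transcript in all 6 libraries, and closer to it with metformin. The mean log2 ratio differed by 0.49 between the groups, an exact two-sided permutation p of 0.1, which is the smallest that 3 against 3 libraries can give.

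TXNRD1 (ENSG00000198431.15, chromosome 12, 104215779 to 104350305, plus strand), the cytosolic thioredoxin reductase whose promoter cores are shown above, had 92.6, 156 and 151 FPKM with metformin, against 55.4, 55.3 and 35.4 FPKM with PBS. It was the most abundant of the 10 genes in both groups, and its groups did not overlap. Its libraries spread more than those of the other 8 tested genes, with metformin replicate 1 and PBS replicate 3 standing low in their groups. The log2 change of 1.43 therefore had the largest SE of the 9 (0.25, limma adjusted p = 0.0029). The related reductase genes did not follow: TXNRD3, of the testis-enriched enzyme, was lower (3.43 ± 0.430 FPKM with metformin and 6.13 ± 0.531 FPKM with PBS, limma adjusted p = 0.00128). TXNRD2, of the mitochondrial enzyme, had 2.03 ± 0.0624 FPKM with metformin and 2.50 ± 0.231 FPKM with PBS and was not called (limma adjusted p = 0.08). That TXNRD2 result crossed the threshold under 3 of 16 alternatives, given with the processing below.

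SRXN1 (ENSG00000271303.1, chromosome 20, 646615 to 653370, minus strand), the sulfiredoxin that restores overoxidised peroxiredoxins, had 79.6, 80.4 and 73.7 FPKM with metformin, against 40.4, 39.997 and 43.3 FPKM with PBS. The separation of the groups was wide beside their spread, and the log2 change was 0.90 (SE 0.06, limma adjusted p = 3.33e-05). Of the 75-base words in SRXN1 transcripts, 84.6% also stand in AL121758.1, another annotated coding gene. AL121758.1 was listed at 0.0571 FPKM with metformin and 0.00646 FPKM with PBS, so its assigned level was low beside that of SRXN1.

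NQO1 (ENSG00000181019.12, chromosome 16, 69706996 to 69726951, minus strand), the quinone reductase that is the most used readout of NRF2, had 37.4, 36.1 and 35.6 FPKM with metformin and 26.4, 28.1 and 27.97 FPKM with PBS. All metformin libraries were above all PBS libraries, but by little. The log2 change was 0.39 (SE 0.05, limma adjusted p = 0.000741), and 46.8% of tested genes had a larger change in either direction. NQO1 shares 575 of its 3254 exon bases with the opposite-strand gene AC092115.2, which had 20.5 FPKM with metformin and 15.8 FPKM with PBS, so part of the NQO1 value is uncertain. The paralog NQO2 had 4.90 ± 0.163 FPKM with metformin and 4.48 ± 0.353 FPKM with PBS and was not called (limma adjusted p = 0.259).

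OSGIN1 (ENSG00000140961.12, chromosome 16, 83948282 to 83966332, plus strand), an oxidative stress-induced growth inhibitor and the gene of the AP-1 letters above, had 11.9, 10.1 and 10.97 FPKM with metformin, against 1.80, 2.08 and 2.27 FPKM with PBS. Its log2 change of 1.98 (SE 0.09, limma adjusted p = 1.05e-05) was exceeded by 1.41% of tested genes. The related gene OSGIN2 also rose, with 15.1 ± 1.70 FPKM under metformin and 8.43 ± 0.445 FPKM under PBS (limma adjusted p = 0.00048). With PBS, OSGIN1 was 1 of the lowest of the 10 genes, below HMOX1, and with metformin the values of the 2 genes overlapped.

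**Figure D1:**
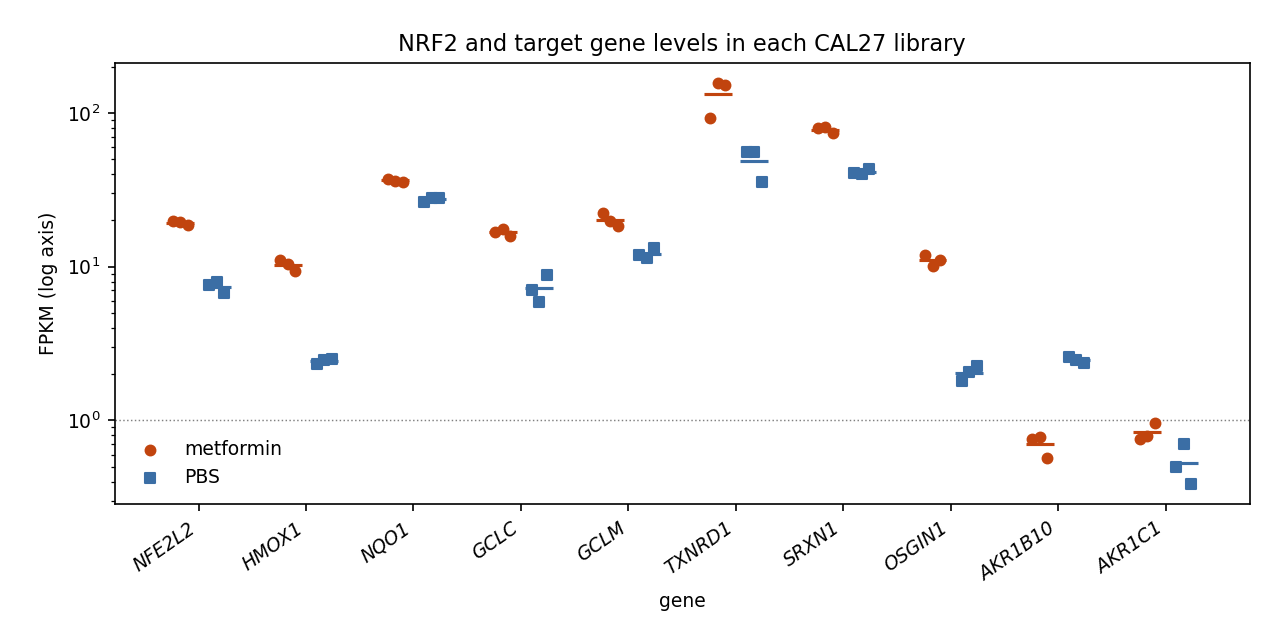
FPKM of the 10 genes in each library on a log axis, with metformin libraries as circles left of PBS libraries as squares, horizontal lines at the means (n = 3 each) and a dotted line at 1 FPKM. Metformin libraries lie above PBS libraries for 9 genes and below them for AKR1B10, and TXNRD1 has the widest scatter of the genes above 1 FPKM. Among all tested genes 35.7% separated with metformin higher and 28.7% with metformin lower. AKR1C1 was not tested, and among genes under the filter and above 0 in a library 12.9% separated with metformin higher.

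AKR1B10 and AKR1C1 encode aldo-keto reductases, which reduce reactive aldehydes and steroids, and both are well known NRF2 targets in human cells. With metformin they were the lowest of the 10 genes. AKR1B10 (ENSG00000198074.9, chromosome 7, 134527592 to 134541408, plus strand), an enzyme for aldehydes and retinal, had 0.756, 0.783 and 0.569 FPKM with metformin, against 2.57, 2.49 and 2.37 FPKM with PBS. It was the only one of the 10 genes with all metformin libraries below all PBS libraries. The level was 3.52-fold lower, and the log2 change was -1.03 (SE 0.10, limma adjusted p = 0.000196). AKR1C1 (ENSG00000187134.13, chromosome 10, 4963253 to 4983283, plus strand), a hydroxysteroid dehydrogenase, had 0.763, 0.791 and 0.958 FPKM with metformin and 0.502, 0.699 and 0.386 FPKM with PBS. These AKR1C1 values did not overlap but lay below the level filter, and 21.7% of its 75-base words also stand in AKR1C2.

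The paralogs of these enzymes did not move together. AKR1C2 had 0.976 ± 0.173 FPKM with metformin and 1.04 ± 0.103 FPKM with PBS (limma adjusted p = 0.743). AKR1C3, under the filter, had 1.27, 1.41 and 1.20 FPKM with metformin and 0.293, 0.490 and 0.214 FPKM with PBS. AKR1B15, also under the filter, had 1.06, 0.325 and 0.976 FPKM with metformin and 0.358, 0.212 and 0.307 FPKM with PBS, and 2.21% of its words stand in AKR1B10. AKR1C4 was at a listed 0 in 4 of 6 libraries and at most 0.0556 FPKM. AKR1B1, the general aldose reductase gene and the most abundant of these paralogs, fell to 22.9 ± 1.31 FPKM with metformin, against 28.2 ± 1.68 FPKM with PBS (log2 change -0.29, limma adjusted p = 0.0103).

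Because FPKM is per length, the 10 genes can be ordered by level. With metformin the order was TXNRD1, SRXN1, NQO1, GCLM, NFE2L2, GCLC, OSGIN1, HMOX1, AKR1C1 and AKR1B10. With PBS it was TXNRD1, SRXN1, NQO1, GCLM, NFE2L2, GCLC, AKR1B10, HMOX1, OSGIN1 and AKR1C1, so the upper 6 places were held in the same order. Neighbours whose library values overlapped were GCLM and NFE2L2, OSGIN1 and HMOX1, and AKR1C1 and AKR1B10 with metformin. With PBS they were TXNRD1 and SRXN1, NFE2L2 and GCLC, and AKR1B10 and HMOX1.

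**Figure D2:**
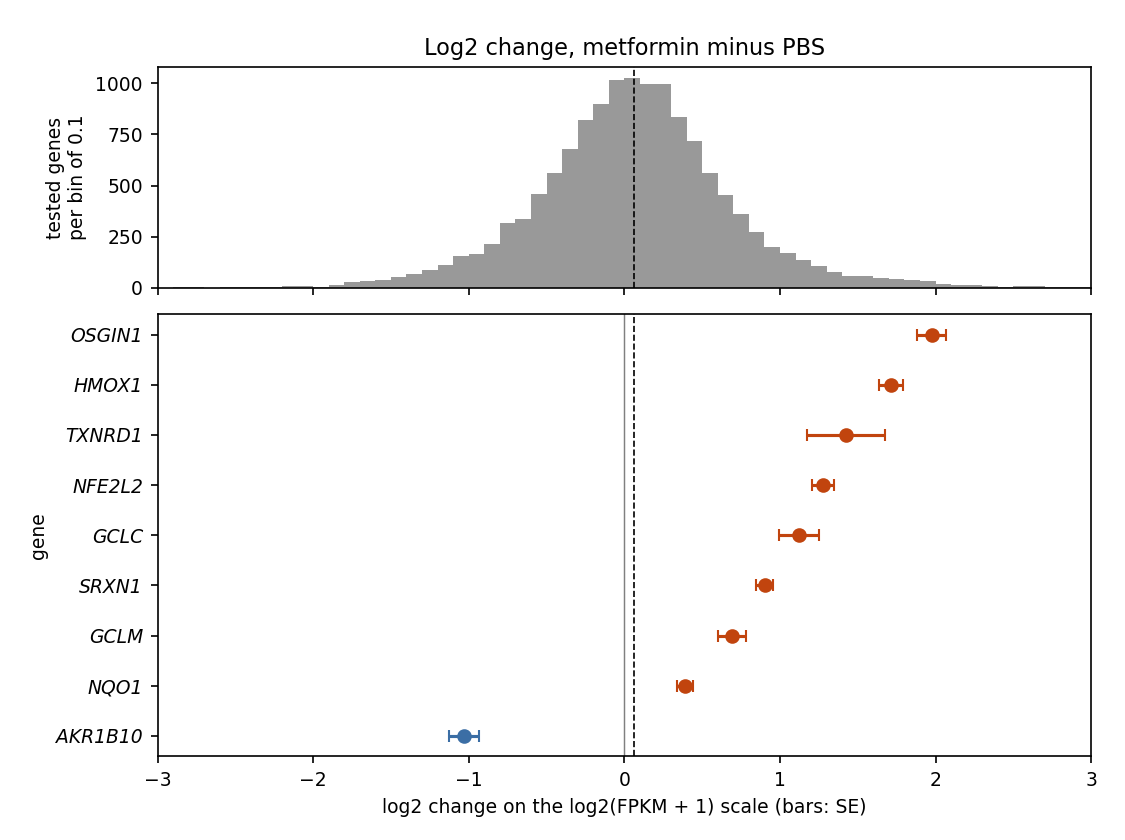
Log2 change, metformin minus PBS, of the 9 tested genes with SE bars (bottom), under a histogram of the log2 changes of the 13437 tested genes (top); the dashed line is the median of all tested genes, 0.06, and the axis leaves out the few genes with larger changes. OSGIN1 (1.98) and HMOX1 (1.71) lie in the upper tail, NQO1 (0.39) lies within the bulk, and AKR1B10 (-1.03) lies on the lower side.

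Of 14 tested regulators on a list of 15, 10 were higher and 1 was lower, the median log2 change being 0.69. The list holds genes that act for NRF2 and genes that act against it, so these counts give no direction for NRF2. Among all tested genes 31.0% were higher and 25.2% lower, and the list was not tested against them. KEAP1, the repressor, had 14.1, 22.2 and 14.4 FPKM with metformin and 16.1, 15.8 and 13.8 FPKM with PBS. These KEAP1 groups overlapped and the gene was not called (log2 change 0.12, limma adjusted p = 0.582), and without metformin replicate 2 the log2 change of KEAP1 was -0.083. In the same ligase, CUL3 had 4.88 ± 0.217 FPKM with metformin and 5.25 ± 0.228 FPKM with PBS and was not called (limma adjusted p = 0.316). RBX1 fell to 9.82 ± 0.549 FPKM with metformin, against 14.6 ± 1.35 FPKM with PBS (limma adjusted p = 0.00179). BTRC, also on the regulator list, rose to 6.18 ± 0.108 FPKM with metformin, against 3.60 ± 0.303 FPKM with PBS (limma adjusted p = 0.000467). GSK3B, on that list too, rose to 14.2 ± 0.276 FPKM with metformin, against 11.2 ± 0.501 FPKM with PBS (limma adjusted p = 0.00356).

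The ratio of NFE2L2 to KEAP1 transcript within a library was 1.40, 0.877 and 1.29 with metformin, against 0.470, 0.502 and 0.487 with PBS. NFE2L2 was thus below KEAP1 in all PBS libraries and above it in 2 of 3 metformin libraries. The mean log2 ratio differed by 1.26 (exact two-sided permutation p = 0.1, the smallest possible). SQSTM1, the autophagy receptor p62 that draws KEAP1 away from NRF2, had 250.3, 292 and 248 FPKM with metformin, against 85.0, 67.3 and 72.3 FPKM with PBS. Its log2 change was 1.81 (limma adjusted p = 2.28e-05), and it shares 1582 of 7654 exon bases with the opposite-strand gene MRNIP (53.6 FPKM with metformin and 17.8 FPKM with PBS).

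The partners and the competitor of NRF2 on its response elements rose as well. The small MAF gene MAFG had 30.7, 33.5 and 33.1 FPKM with metformin, against 12.0, 10.3 and 4.16 FPKM with PBS, where replicate 3 stood low (limma adjusted p = 0.00272). MAFF rose 2.85-fold and MAFK 1.68-fold, to 10.0 ± 1.93 and 44.9 ± 1.36 FPKM with metformin against 3.51 ± 0.585 and 26.8 ± 1.54 FPKM with PBS (limma adjusted p = 0.000609 and 9.26e-05). BACH1, the repressor of HMOX1 and other such genes, was 1.87-fold higher, at 17.4 ± 0.669 FPKM with metformin and 9.31 ± 0.504 FPKM with PBS (limma adjusted p = 7.33e-05). Transcripts of an activator's partners and of its competitor were therefore both higher. MAFG shares 224 exon bases with AC145207.8 on the opposite strand (10.3 FPKM with metformin and 3.39 FPKM with PBS) and 105 with SIRT7 on its own strand, and MAFK shares 809 with TMEM184A on the opposite strand.

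**Figure D3:**
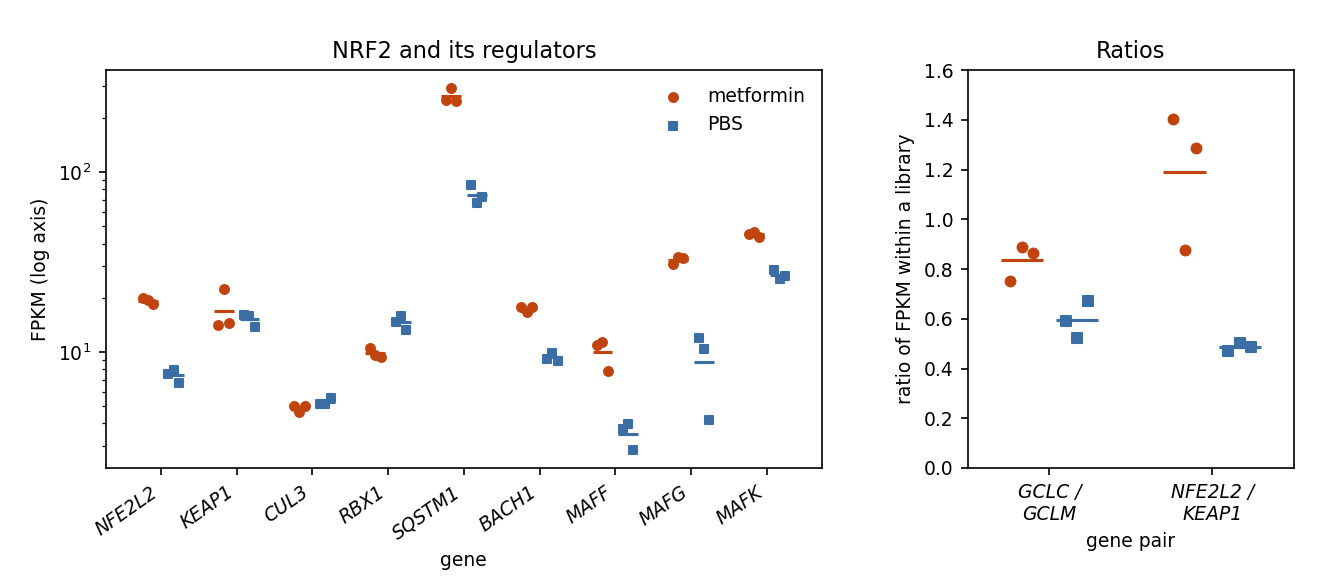
Left, FPKM of NFE2L2 and 8 regulators in each library on a log axis, metformin as circles left of PBS as squares, lines at the means (n = 3 each). Right, the within-library ratios of GCLC to GCLM and of NFE2L2 to KEAP1, with lines at the mean ratios; metformin libraries lie between 0.753 and 1.40 and PBS libraries between 0.470 and 0.670, and for both ratios the groups do not overlap.

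Other genes of the same defence went in both directions. On 7 lists with 113 genes, regulators included, 93 were tested, 26 were higher and 38 lower, the median log2 change being -0.09. Leaving the regulators aside, each of the 6 remaining lists had more genes lower than higher, except the heme and iron list under some settings. It had 4 of each under quantile normalization and 2 of each with a filter of 5 FPKM. The 10 genes, 8 of them higher, are on none of these lists, though several belong to the same pathways. With HMOX1 on it, the heme and iron list would not have more genes lower than higher. These counts stand beside 31.0% higher and 25.2% lower among all tested genes, and the lists were not tested against other genes.

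In glutathione synthesis and use, 4 of 18 tested genes were higher and 8 lower. SLC7A11, the cystine transporter that feeds glutathione synthesis and is known as a target of both NRF2 and ATF4, had 20.5, 20.1 and 17.99 FPKM with metformin, against 4.98, 4.61 and 5.41 FPKM with PBS (log2 change 1.77, limma adjusted p = 9.24e-06), and shares 865 of 9645 exon bases with the opposite-strand gene SLC7A11-AS1. GPX8, a peroxidase of the endoplasmic reticulum, rose 2.03-fold, whereas GSTO1, an omega-class glutathione transferase, was 2.11-fold lower. Outside the rule for naming and chosen after their values were seen, GSR, which regenerates glutathione, fell to 36.1 ± 2.94 FPKM with metformin, against 57.1 ± 3.25 FPKM with PBS (limma adjusted p = 0.000412). GPX4, which reduces lipid peroxides, fell to 17.7 ± 0.654 FPKM with metformin, against 31.0 ± 3.60 FPKM with PBS (limma adjusted p = 0.000388). SLC7A11, GCLC and GCLM were thus higher and GSR lower. SLC3A2, on the same list and also named after its values were seen, was not called. It had 80.2 ± 4.03 FPKM with metformin and 72.5 ± 3.71 FPKM with PBS (limma adjusted p = 0.0766).

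The thioredoxin and peroxiredoxin list also holds glutaredoxins, sestrins and methionine sulfoxide reductases. Of its 20 tested genes, 3 were higher, 6 lower and 11 not called. The higher ones were SESN2, GLRX2 and PRDX5, and the lower ones TXN2, TXNRD3, PRDX2, PRDX3, GLRX3 and MSRB1. GLRX2, GLRX3 and TXN2 were named after their values were seen. SESN2, a stress-induced sestrin also known as an ATF4 target, had 31.2, 33.5 and 34.0 FPKM with metformin, against 3.53, 3.39 and 3.92 FPKM with PBS. This 9.10-fold rise (limma adjusted p = 1.78e-06) exceeded that of each of the 10 genes. The peroxiredoxin gene PRDX2 was 1.88-fold lower and the methionine sulfoxide reductase gene MSRB1 1.93-fold lower (limma adjusted p = 0.000373 and 0.000321), and PRDX2 shares 296 of 2093 exon bases with the opposite-strand gene AC018761.2. Thioredoxin itself, TXN, the substrate of TXNRD1 and named after its values were seen, had 367 ± 12.5 FPKM with metformin and 394 ± 16.3 FPKM with PBS (limma adjusted p = 0.102).

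NADPH, which the reductases above consume, is made by enzymes of which 2 of 9 tested were higher and 6 lower. IDH1, the cytosolic isocitrate dehydrogenase, rose to 77.6 ± 0.913 FPKM with metformin, against 34.4 ± 3.76 FPKM with PBS (limma adjusted p = 4.95e-05). MTHFD1 of folate metabolism was 2.79-fold lower and TALDO1, transaldolase, 2.11-fold lower (limma adjusted p = 5.28e-06 and 4.45e-05). PGD, a dehydrogenase of the pentose phosphate pathway known as an NRF2 target and named after its values were seen, fell to 84.1 ± 3.62 FPKM with metformin, against 135 ± 6.16 FPKM with PBS (limma adjusted p = 9.12e-05).

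Among 18 tested genes of carbonyl and quinone metabolism and export, 3 were higher and 9 lower. ABCC3, an efflux pump for conjugates, rose 2.47-fold to 13.4 ± 0.726 FPKM with metformin, against 5.43 ± 0.182 FPKM with PBS. PTGR1, a prostaglandin and alkenal reductase, rose 2.28-fold, and ALDH3A2, a fatty aldehyde dehydrogenase, was 1.98-fold lower (limma adjusted p = 2.26e-05, 0.000152 and 0.00152 for the 3 genes).

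The heme and iron list gave 3 higher and 4 lower of 9 tested. It leaves out HMOX1, itself higher, and also holds genes of heme synthesis and of heme and iron transport. Tested genes of that kind were SLC48A1, higher, and FECH, FLVCR1 and TFRC, lower, all named after their values were seen. FTL and FTH1, the ferritin chains that store the iron HMOX1 frees, were the most abundant genes of all the lists. FTL had 2661, 2671 and 2747 FPKM with metformin, against 891, 992 and 906 FPKM with PBS, and FTH1 had 2322, 1881 and 1796 FPKM with metformin, against 728, 905 and 805 FPKM with PBS. Both were clear of the PBS range (limma adjusted p = 2.41e-06 and 0.000143), with many pseudogenes that can share their fragments and, for FTH1, 1267 of 2030 exon bases shared with the opposite-strand gene BEST1. BLVRA, which reduces the biliverdin made by HMOX1, was 1.92-fold lower (limma adjusted p = 0.000134).

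On the short list of superoxide and peroxide removal, 4 of 5 tested genes fell: SOD1, SOD2, CAT and CCS. CCS is a copper chaperone of superoxide dismutase and not itself a removing enzyme. SOD1 and CCS were named after their values were seen. OSGIN2, also placed on this list, rose. Peroxidases stood on other lists, where GPX8 and PRDX5 were higher and GPX2, GPX3, GPX4, PRDX2 and PRDX3 lower. GPX1, PRDX1, PRDX4 and PRDX6 were not called. Of these peroxidase genes, all but GPX8 and PRDX2 were named after their values were seen. SOD2, the mitochondrial superoxide dismutase, fell to 9.02 ± 0.148 FPKM with metformin, against 30.2 ± 2.15 FPKM with PBS, a log2 change of -1.64 (limma adjusted p = 6.47e-06). CAT, catalase, fell to 82.2 ± 5.66 FPKM with metformin, against 132 ± 3.998 FPKM with PBS (limma adjusted p = 0.000144).

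**Figure D4:**
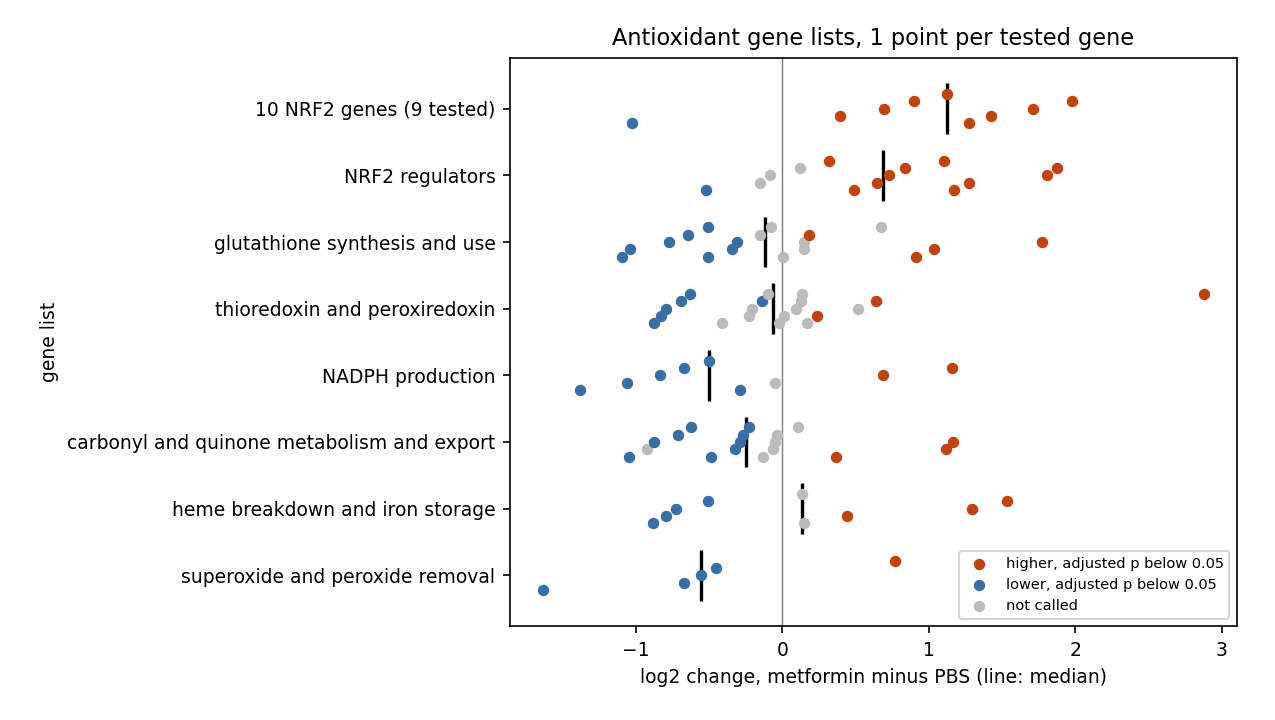
Log2 change, metformin minus PBS, of each tested gene of the 10 NRF2 genes and of 7 related lists, coloured by call, with a vertical line at each list's median. The 10 genes and the regulators have medians of 1.12 and 0.69, and the superoxide and NADPH lists have the lowest medians, -0.56 and -0.50.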

How the data were processed

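Messenger RNA sequencing gave 1 FPKM table for each of 3 metformin and 3 PBS libraries of CAL27 cells. The authors deposited FPKM values, per the file headers, and the build was GRCh38, per the submitters' processing notes. The sources used here do not name the aligner, counting tool, strand setting or annotation. GENCODE 29 (GRCh38) named 57980 of 58243 identifiers, and 27781 genes, the 37 mitochondrial DNA genes among them, were at 0 throughout.

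Values were fitted as log2(FPKM + 1) with limma 3.58.1 in R 4.3.3 (group only, intensity trend, two-sided), for the 13437 genes averaging 1 FPKM or more, and adjusted by Benjamini-Hochberg over them. The fit was tested on simulated data. Ratios used exact permutation tests (SciPy 1.17.1). No 2 libraries shared more than 1 identical value. The members and lists were chosen with earlier results of these data known. Named genes are the members, 10 paralogs, 5 regulators and the 3 largest called changes of each list with at least 5 FPKM in the higher group. CUL3 and RBX1, of the KEAP1 ligase, and the regulators BTRC and GSK3B were named after their values were seen. Proteins were not compared; instead, after the data were seen, exons shared with other genes and 75-base transcript words shared with other genes were counted in GENCODE 29. Alternatives were other pseudocounts, filters, scalings, priors, a replicate block and each library left out.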

Additional observations from a re-analysis of the deposited data

How the results depend on the processing

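Over 16 alternatives the 8 higher genes stayed higher and called. Their log2 changes ranged from 0.33 to 0.47 for NQO1, from 1.22 to 1.67 for TXNRD1 and from 1.88 to 2.42 for OSGIN1, and their highest limma adjusted p was 0.0124. AKR1B10 stayed lower and called in the 15 that tested it (-1.81 to -0.97). With a filter of 5 FPKM it was not tested, leaving 0 members lower, and the genes differing, metformin against PBS, numbered 4738, with 2401 higher, beside 7549 and 4169, with fewer genes tested. Without a filter AKR1C1 had a log2 change of 0.27 (limma adjusted p = 0.154). With the replicate block 7139 genes and the same 9 members were called. Deviations of same-numbered libraries correlated between -0.0105 and 0.0304, and those of differently numbered libraries between -0.0467 and 0.0444. With 3 libraries per group these correlations cannot decide whether the numbers pair samples. On leaving out 1 library the log2 change of KEAP1, not called, ranged from -0.083 to 0.23 and that of AKR1C2 from -0.10 to 0.022, reversed without metformin replicate 2 and 3. With median-of-ratios scaling or without metformin replicate 2, 2 regulators were lower and not 1. With the filter of 5 FPKM, 5 glutathione and 2 heme and iron genes were lower, not 8 and 4, and under quantile normalization 4 heme and iron genes were higher, not 3. The genes higher with metformin and the genes lower with metformin numbered 3745 and 3750 under median-of-ratios scaling and 3645 and 3813 under quantile normalization, beside 4169 and 3380. The log2 change of TXNRD2 was called with median-of-ratios scaling, quantile normalization and no trend (adjusted p 0.0463, 0.014 and 0.0453). Estimated depth limits AKR1B10, AKR1C1 and other genes near 1 FPKM.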

Other observations

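Of the 20 genes of the related lists that lay below the level filter and were not tested, 9 had groups that did not overlap, 3 with metformin higher and 6 with metformin lower. Among all 17025 genes below the filter and above 0 in a library, groups did not overlap in 20.1%. Metformin was higher in 12.9% and lower in 7.2% of them, and the related genes were not tested against these. The 3 higher were AKR1C3, BACH2 and ABCC2, and the 6 lower were GSTA4, GSTM1, GSTM2, GSTM4, SESN3 and ALDH1L1. All of these but AKR1C3, and NFE2L1 and NFE2L3, were named after their values were seen. BACH2, a relative of BACH1, had 0.134, 0.205 and 0.320 FPKM with metformin and 0.00626, 0 and 0.0367 FPKM with PBS. ABCC2, an efflux pump known as an NRF2 target, had 0.767, 0.543 and 0.374 FPKM with metformin and 0.251, 0.235 and 0.306 FPKM with PBS. GSTA4, a transferase for lipid aldehydes, had 0.0449, 0 and 0 FPKM with metformin and 0.253, 0.294 and 0.234 FPKM with PBS. GSTM1, another glutathione transferase, had 0.579, 0.291 and 0.242 FPKM with metformin and 1.75, 1.64 and 1.47 FPKM with PBS. GSTM1 to GSTM4 are close paralogs, so their values are uncertain. NFE2L1, the NRF2 relative that drives proteasome genes, was tested and rose to 69.1 ± 0.558 FPKM with metformin, against 30.7 ± 6.88 FPKM with PBS (limma adjusted p = 0.000798). NFE2L3, another relative, had 25.5 ± 1.497 FPKM with metformin and 28.5 ± 0.773 FPKM with PBS (limma adjusted p = 0.0628). NFE2L1 shares 192 exon bases with the opposite-strand gene AC004477.2, which had 212 FPKM with metformin and 65.6 FPKM with PBS.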
